A study of Mus musculus with 23 samples.

Results

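The immediate early genes described here are 10 genes of mouse B cells chosen by name: the AP-1 subunit genes Fos, Fosb, Jun, Junb and Jund, the zinc finger factor genes Egr1 and Egr3, the orphan nuclear receptor gene Nr4a1, the nuclear protein gene Ier2 and the phosphatase gene Dusp1. All 10 were among the 11548 genes listed for naive B cells, and 8 were among the 10574 listed for cultured cells, which do not list Fosb and Egr3. The 2 tables together hold 11944 genes. The rule was a list of gene symbols.

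PolyA RNA was sequenced from spleen B cells in 23 libraries of 8 groups. KO cells carried a guide RNA against Irf8, the gene of an interferon regulatory factor, and were sorted as Thy1.1+. WT cells carried none and were sorted as Thy1.1-. Naive cells, untreated and sorted as CD11b- F4/80- Thy1.2- B220+, gave 12 libraries, with 3 WT and 3 KO in an arm for guide 1 and the same in an arm for guide 2. Activated B cells (also GL7+ CD138-, 3 WT and 3 KO libraries) and plasmablasts (B220+ or mid, CD138+, labelled as plasma cells, 2 WT and 3 KO libraries) came from naive cells kept for 72 hours in a culture that the labels describe as holding LPS at 20 mg/ml. It also held the cytokines IL-2 at 20 ng/ml and IL-5 at 5 ng/ml, and the cultured KO cells carried guide 1. Cells with a guide to some other gene were not among the groups, so loss of Irf8, the guide itself and the Thy1.1 sort cannot be told apart in any KO comparison. The labels used here give no age, strain or sex. They do not say whether libraries of a group came from separate animals or cultures, so p-values measure the spread between these libraries. Library numbers in cultured cells and letters in naive cells recur across KO and WT groups. What they mark is not stated, and the main tests did not pair libraries by them.

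Immediate early genes are switched on within minutes of a signal, without new protein synthesis, by factors that are already bound or are activated by kinases. In B cells the antigen receptor, Toll-like receptors and CD40 signal to them through the MAP kinases ERK, JNK and p38 and through calcium. FOS and JUN proteins pair to form AP-1, EGR proteins bind GC-rich sites, NR4A1 is a commonly used reporter of antigen receptor signalling, and DUSP1 dephosphorylates MAP kinases and so limits the response. Handling of tissue is also known to induce many of these genes in freshly isolated cells.

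Promoter sequence from RefSeq (GRCm38.p6, the assembly called mm10) was on hand for 7 of the 10 genes, Fos, Fosb, Jun, Junb, Jund, Dusp1 and Nr4a1. Of these, 4 are shown because their levels differed most, or least, between the cell states described below. Fos and Nr4a1 had the largest differences between naive and cultured cells, Dusp1 differed between activated cells and plasmablasts, and Jund was at a similar level in each state. Each line gives the 150 bases before the transcript start, 5' to 3' on the strand of the gene, with TGACG, the core of the cAMP response element (or CGTCA, its reverse complement), and the full element TGACGTCA in capitals.
Fos, chr12:85473740-85473889, + strand: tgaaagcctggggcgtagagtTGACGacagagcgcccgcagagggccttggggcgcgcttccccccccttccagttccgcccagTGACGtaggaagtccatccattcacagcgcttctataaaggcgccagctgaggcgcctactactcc
Nr4a1, chr15:101266696-101266845, + strand: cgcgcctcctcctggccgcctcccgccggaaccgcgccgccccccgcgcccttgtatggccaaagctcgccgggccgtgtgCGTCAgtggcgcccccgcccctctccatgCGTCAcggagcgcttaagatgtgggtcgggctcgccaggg
Dusp1, chr17:26508473-26508622, - strand: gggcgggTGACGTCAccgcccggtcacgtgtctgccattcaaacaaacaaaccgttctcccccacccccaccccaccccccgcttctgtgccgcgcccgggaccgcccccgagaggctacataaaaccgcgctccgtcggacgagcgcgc
Jund, chr8:70697589-70697738, + strand: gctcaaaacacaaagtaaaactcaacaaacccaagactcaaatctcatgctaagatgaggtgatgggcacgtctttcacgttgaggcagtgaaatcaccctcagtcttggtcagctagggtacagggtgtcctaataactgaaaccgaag
The Nr4a1 stretch lies inside the annotated span of the gene, which has an earlier start. That of Jund ends at the outer edge of a span of 2878 bases, where the gene length the authors used was 1668 bases. Any Jund start further inside the span was not searched. In the 250 bases before the start, searched on both strands, the core TGACG was found in 5 of the 7 promoters (Fos, Fosb, Junb, Dusp1 and Nr4a1), against 17.77% of 32851 promoters of the table. There were 4 in Nr4a1 (2 of them within the bases shown), 3 in Dusp1, 2 in Fos and 1 each in Fosb and Junb, and 2 of the 3 in Dusp1 are the overlapping arms of 1 full element. The full element TGACGTCA was in Dusp1 alone of the 7, against 1.55% of all promoters. The GC box GGGCGG was in 5 of 7 (32.74% of all) and an NF-kB motif in 2 of 7, Fos and Fosb (7.25%). The serum response element core known as the CArG box (1.47%), the AP-1 site TGACTCA (4.46%) and the ETS-IRF composite element (2.3%) were in 0 of the 7. These matches describe letters in a short window and are not measured binding. Sites further upstream, other variants of the motifs and the promoters of Egr1, Egr3 and Ier2 were not searched.

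Libraries differed in quality in ways that touch the results. Estimated reads per library (from the step that 1 read makes in low values) were 14500000 to 22200000 in naive and 4320000 to 26900000 in cultured cells, but 51300 in plasmablast KO library 3. It listed 1984 genes at 0, and its correlation with the other cultured libraries had a median of 0.477, where the rest had 0.944 to 0.968. In naive KO guide 1 library A 1405 genes were at 0, and the same median was 0.87, where other naive libraries had 0.959 to 0.979. Irf8 itself was at 47.594 to 77.713 RPKM in naive KO and 79.827 to 97.964 in naive WT libraries, and at 17.486 to 24.191 in plasmablast KO and 24.616 and 17.553 in plasmablast WT libraries, so its RNA was not absent from KO cells. In activated cells the library labelled KO 3 held 0.093 RPKM of Thy1 and 92.4 of Irf8, and the library labelled WT 3 held 25.7 and 60.0, the reverse of libraries 1 and 2. RPKM scales reads to gene length and library size. Naive WT library A of the guide 1 arm held 4.93 RPKM of Thy1. Tests were also run without naive KO guide 1 A and, in cultured cells, without both activated libraries 3 and plasmablast KO 3. The B cell marker genes Ms4a1, Cd79a, Cd79b, Pax5 and Cd22 summed to 2270 to 2850 RPKM in naive libraries. Of T cell markers, Cd3e, Cd3d, Cd3g, Cd4, Cd8a, Cd8b1 and Trac were listed in neither table. The listed ones were Lck and the sort marker Thy1, with Cd28 in cultured cells, and they summed to 41.0 to 89.8 RPKM in plasmablast KO and 6.95 to 7.1 in plasmablast WT libraries, where Thy1 alone was at 32.759 to 40.724 and at 0.057 and 0.142. All 9 neutrophil markers were absent from both tables.

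In naive WT cells the AP-1 genes of the JUN family and Ier2 were the most abundant of the 10 and Fosb the least. Jund was at 269 ± 48.1 RPKM (SD, n = 6 libraries of both arms), Junb at 232 ± 36.0, Ier2 at 143 ± 15.9, Jun at 84.5 ± 10.2 and Fos at 57.7 ± 8.62. Dusp1 was at 20.6 ± 4.57, Nr4a1 at 16.8 ± 3.69, Egr1 at 16.6 ± 1.89, Egr3 at 10.6 ± 1.83 and Fosb at 0.583 ± 0.271. In this order the libraries of Jund and Junb overlapped, as did those of Dusp1, Nr4a1 and Egr1, and the other neighbours did not overlap. The order also depends on the gene lengths the authors used. They exceed the RefSeq span of the gene for 7 of the 10 members, and for 9.86% of the naive genes with a span. The length was 2.01 times the span for Egr1, 1.97 times for Dusp1, 1.74 for Fosb and 1.12 for Egr3 and Fos. For Jun and Ier2 the excess was slight, with a rounded ratio of 1.0. Comparisons of 1 gene between libraries of a table do not depend on the length.

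Most of the 8 genes listed for both had naive WT means 1.98 to 89.8 times their activated WT means, and Jund did not. The 2 tables were made separately and naive cells were not cultured, so culture, stimulation, cell state and table cannot be told apart, and these values are a description without a test. Fos, an AP-1 subunit gene known for brief induction, was at 47.991 to 69.59 RPKM in the 6 naive WT libraries. It was at 0.386, 0.629 and 0.913 in the activated libraries labelled WT and at 2.334 and 0.854 in the plasmablast WT libraries. The naive mean was 89.8 times the activated one, and no cultured library came near a naive one. Among the 10178 genes of both tables, Fos was at percentile 92.9 to 95.9 in naive WT libraries, 2.3 to 9.5 in activated and 11.4 to 23.5 in plasmablast WT libraries. These cultured levels rest on few reads, 14 in plasmablast WT library 2 and 19 in the activated library labelled WT 3.

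Nr4a1 was the next in size, with a naive WT mean 8.89 times the activated mean of 1.89 ± 0.958 RPKM (SD, n = 3). Plasmablast WT libraries held 0.461 and 0.183 RPKM of Nr4a1, the latter from an estimated 3 reads, at percentiles 4.7 and 2.4 against 66.7 to 80.2 in naive WT libraries. Ier2 was 4.91 times higher in naive than in activated WT cells (29.1 ± 3.19 RPKM, n = 3), Egr1 4.5 times (3.68 ± 1.79), Junb 3.33 times (69.5 ± 6.74), Dusp1 2.49 times (8.28 ± 4.89) and Jun 1.98 times (42.7 ± 18.3). In plasmablast WT libraries Dusp1 was at 14.288 and 15.663 RPKM, the latter within its naive WT range of 15.424 to 25.136. How many of all genes differ by as much as the members was not counted. The activated means above include the library labelled WT 3. With activated WT libraries 1 and 2 alone, the naive mean was 3.75 times the activated one for Dusp1, a move of over 1.5 times, 2.61 times for Jun, 6.26 for Egr1, 114 for Fos, 7.69 for Nr4a1, 5.24 for Ier2 and 3.17 for Junb. Jund, the subunit known for steady expression in resting cells, was at 290 ± 15.0 RPKM in activated cells (n = 3) and at 268.397 and 310.093 in plasmablasts, within the naive range of 203.131 to 336.397. The median log2 difference of all genes in both tables was -0.03 for activated and -0.16 for plasmablast against naive WT cells, and the 8 members had differences of -5.16 (Fos) to 0.11 (Jund) and -4.5 (Fos) to 0.1 (Jund).

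**Figure D1:**
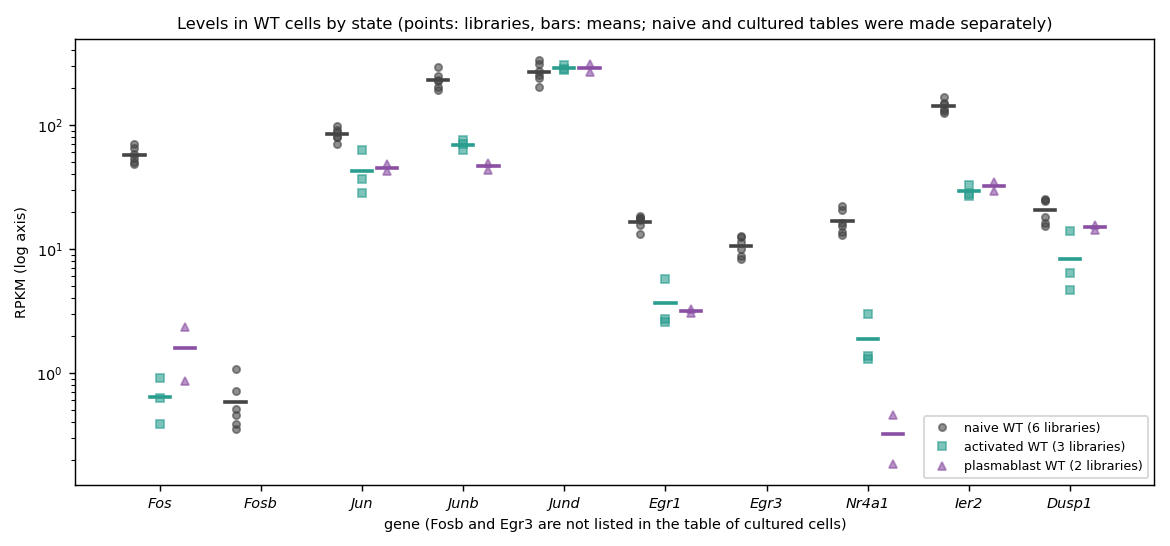
RPKM (log axis) of each immediate early gene in WT libraries of naive (6), activated (3) and plasmablast (2) cells, with points for libraries and bars for means. Fos is at 47.991 to 69.59 in naive libraries and at 0.386 to 2.334 in cultured ones, while Jund lies between 203.131 and 336.397 in all of them.

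Naive KO and WT cells were compared as the mean of both within-arm differences, a comparison of unstimulated cells. Egr1 (Entrez gene 13653, GRCm38.p6 chromosome 18, 34861207 to 34864956) fell, and the other 9 genes did not pass the test. Egr1 was at 18.34, 16.975 and 15.561 RPKM in the 3 WT libraries (A to C) of the arm of guide 1 and at 2.972, 10.912 and 6.533 in the KO libraries. In the guide 2 arm it was at 17.652, 13.216 and 17.664 in WT and at 10.682, 8.917 and 9.055 in KO. Every one of the 6 KO libraries was lower than the lowest of the 6 WT libraries, 8.18 ± 3.0 against 16.6 ± 1.89 RPKM (SD, n = 6 each). Egr1 encodes a zinc finger factor induced through ERK. It fell by 1.02 on the log2(RPKM + 1) scale (SE 0.21, 95% interval -1.48 to -0.55, limma adjusted p = 0.0314), so 1 of 10 members was called at an adjusted p under 0.05, against 1.88% of the 10137 genes tested. Library A of the KO guide 1 group is the lowest of the 12. Without it Egr1 fell by 0.81 (SE 0.13, adjusted p = 0.00369), again the 1 member called, against 3.84% of all genes. The call was lost when any of 10 other libraries was left out in turn (adjusted p = 0.0534 to 0.0919), and it held without KO guide 1 library A or B.

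Egr3, the second EGR gene measured, was at 5.284 to 9.198 RPKM in KO libraries and 8.349 to 12.629 in WT libraries, 7.29 ± 1.3 against 10.6 ± 1.83 (SD, n = 6 each). The groups overlapped, and the difference of -0.48 (95% interval -0.8 to -0.16) was not called (adjusted p = 0.151). Among the JUN genes, Junb had 177 ± 39.9 RPKM in KO and 232 ± 36.0 in WT libraries, and Jund at 209 ± 43.6 and 269 ± 48.1. Their differences of -0.40 and -0.37 had intervals below 0 (-0.67 to -0.13 and -0.66 to -0.08) and were not called (adjusted p = 0.168 and 0.236). With array weights, which count each library by its estimated precision, both passed the test (Junb -0.44, adjusted p = 0.0206, and Jund -0.48, adjusted p = 0.0185). With a replicate block, which gives each library letter its own level, Jund passed the limma test (-0.37, adjusted p = 0.0466) and Junb did not. In 5 of 6 KO libraries Junb was below the lowest WT library of 193.104 RPKM and KO guide 1 library B was within the WT range at 255.336. Without that library Junb passed the test (-0.52, adjusted p = 0.00999). Jun, the subunit activated by JNK, was at 82.9 ± 14.4 in KO and 84.5 ± 10.2 in WT, a difference of -0.04 with an interval of -0.29 to 0.21.

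The remaining naive genes also overlapped between KO and WT. Fos had 32.18 to 58.636 RPKM in KO and 47.991 to 69.59 in WT libraries (difference -0.23, interval -0.51 to 0.05). Ier2, a nuclear protein of uncertain function, differed by -0.24 (-0.54 to 0.05), and Dusp1 by -0.09 (-0.31 to 0.13). Nr4a1 and Fosb had positive differences, 0.25 (-0.09 to 0.58) and 0.22 (-0.24 to 0.69). Fosb passed the filter of 1 RPKM in 2 libraries through 3 libraries, KO guide 1 A at 1.937, KO guide 2 A at 1.381 and WT B of the guide 2 arm at 1.074. Summed markers of macrophages and monocytes were at 5.31 to 14.9 RPKM in WT and 5.5 to 33.0 in KO libraries, and those of NK cells at 0.941 to 15.8 and 2.3 to 5.84. Of the 6 NK cell markers tested, Prf1 was called higher in KO, and the list's median difference was -0.5. The part of these markers in the naive differences was not tested. The median difference of the 10 members was -0.24, and of all tested genes -0.02.

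**Figure D2:**
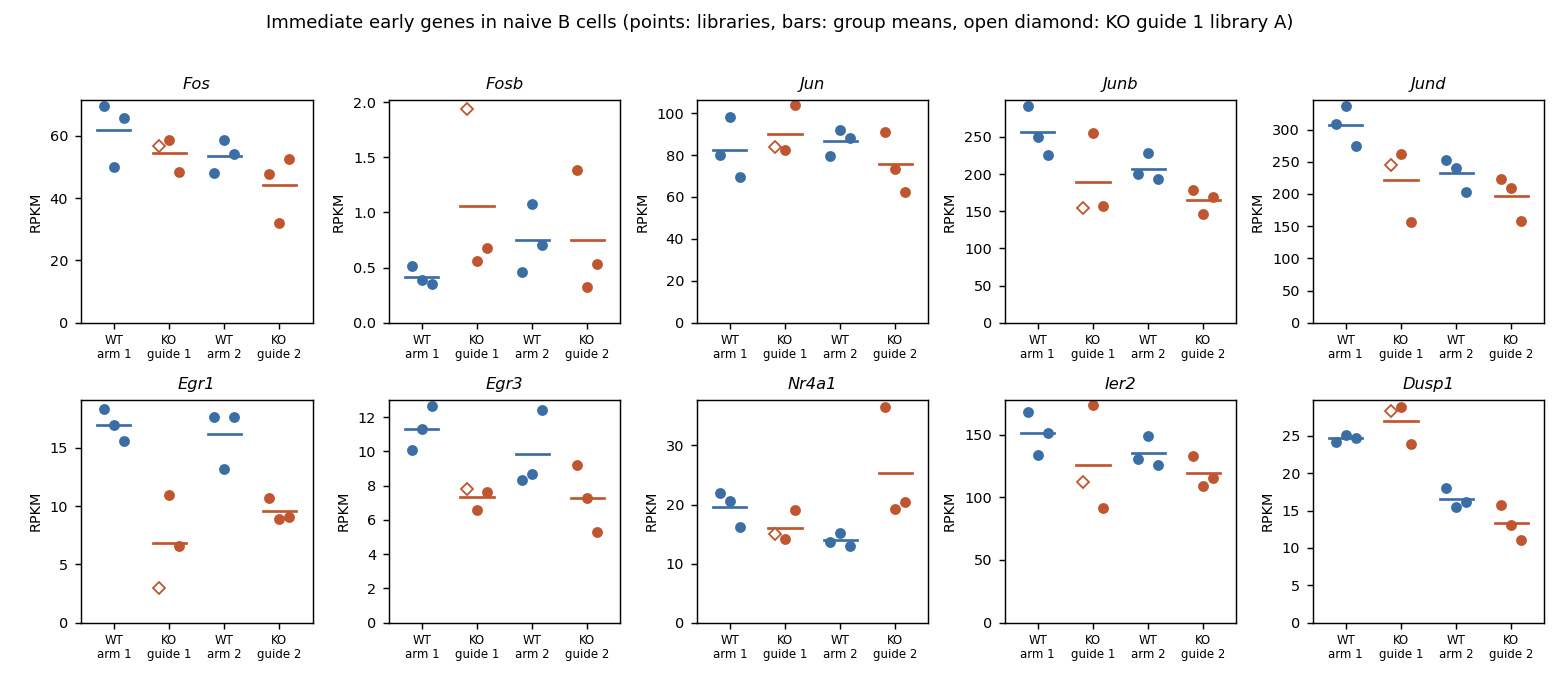
RPKM of the 10 genes in the 12 naive libraries, with points for libraries, bars for group means and an open diamond for KO guide 1 library A. Egr1 shows all KO libraries (2.972 to 10.912) below all WT libraries (13.216 to 18.34), and the other genes overlap.

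Each guide was also compared with the WT cells of its own arm. With guide 1, limma called 0 of 10 members (1.11% of all genes), and Egr1 had a difference of -1.34 (SE 0.3, adjusted p = 0.0574). Without KO guide 1 library A, Egr1 fell by 0.92 (adjusted p = 0.0289), 1 of 10 members against 2.4% of all genes. With guide 2, limma called 0 of 10 members (0.0296% of all genes), and without that library, whose removal changes only the shared estimate of the spread, also 0 (0.348%). Egr1 had a difference of -0.70 with guide 2 (SE 0.3, interval -1.35 to -0.04, adjusted p = 1). Some uncalled genes also did not overlap within an arm. The share of all genes that do not overlap was not counted in any comparison here, so lack of overlap says nothing particular of the members. With guide 1, Egr3 was at 6.584 to 7.772 RPKM in KO and 10.075 to 12.629 in WT. Jund was at 156.679 to 261.333 and 273.876 to 336.397, and Fosb at 0.561 to 1.937 and 0.35 to 0.516. With guide 2, Junb was at 146.899 to 178.389 and 193.104 to 228.61, and Nr4a1 is given below.

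Nr4a1 differed in sign between the guides. With guide 2 it was at 36.522, 19.167 and 20.417 RPKM in KO and 13.7, 15.187 and 12.999 in WT, all KO libraries above all WT libraries (difference 0.76, SE 0.22, adjusted p = 0.672). With guide 1 it was at 15.072, 14.181 and 19.013 in KO and 22.012, 20.534 and 16.227 in WT, and the groups overlapped (difference -0.27, adjusted p = 0.566). The test of the difference between guides gave 1.03 for Nr4a1 (interval 0.35 to 1.71, adjusted p = 0.918), and 0 of 10 members and 0% of all genes were called, with 479 genes at an unadjusted p under 0.05.

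The WT cells of both arms, which carry no guide, show how far the arms differ on their own. Dusp1, the MAP kinase phosphatase gene, was at 24.205, 25.136 and 24.763 RPKM in the guide 1 arm and 18.018, 15.424 and 16.097 in the guide 2 arm, with no overlap. Its difference of -0.56 (SE 0.15, interval -0.87 to -0.24) was not called (adjusted p = 0.999), and 0 of 10 members were, against 0.0493% of all genes. The KO libraries of Dusp1 differed by arm in the same direction, 28.331, 28.906 and 23.861 with guide 1 and 15.769, 13.119 and 11.004 with guide 2.

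In activated B cells no member passed the test between the KO and WT libraries as labelled, and limma called 0 of 8 members and 0% of the 9986 genes tested, with 2 genes at an unadjusted p under 0.05. Dusp1 was at 11.333 and 9.094 RPKM in KO libraries 1 and 2 and at 4.646 and 6.349 in WT libraries 1 and 2. It was at 6.553 in the library labelled KO 3 and at 13.841 in the library labelled WT 3. Jun was at 48.505 and 41.801 in KO libraries 1 and 2, at 28.18 and 36.657 in WT libraries 1 and 2, at 33.263 in the library labelled KO 3 and at 63.237 in that labelled WT 3. For both genes the 3 libraries with 21.946 to 27.782 RPKM of Thy1 are the 3 highest, whichever label they carry. Junb was at 57.585 and 62.463 in KO libraries 1 and 2, at 75.852 and 70.294 in WT libraries 1 and 2, at 84.3 in the library labelled KO 3 and at 62.436 in that labelled WT 3, so the same 3 libraries are its 3 lowest. Egr1, Fos, Jund, Ier2 and Nr4a1 did not split by Thy1 in this way, and the share of all genes that do was not counted. The part of the labels in these values was not tested.

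Without both libraries 3 and plasmablast KO library 3, which leaves 2 libraries in each cultured group, Dusp1 rose by 0.79 in activated KO cells (SE 0.16, interval 0.45 to 1.13, adjusted p = 0.0413). This was 1 of 8 members, against 0.71% of 9861 genes. Jun had a difference of 0.47 (0.16 to 0.78, adjusted p = 0.165) and Junb of -0.28 (-0.51 to -0.05, adjusted p = 0.295), neither called. Egr1 was at 0.38 (0.03 to 0.74), against -1.02 in naive cells of both guides, a pair not compared by a test since the tables were made separately. Fos, Jund, Ier2 and Nr4a1 had differences of -0.03 to 0.11.

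**Figure D3:**
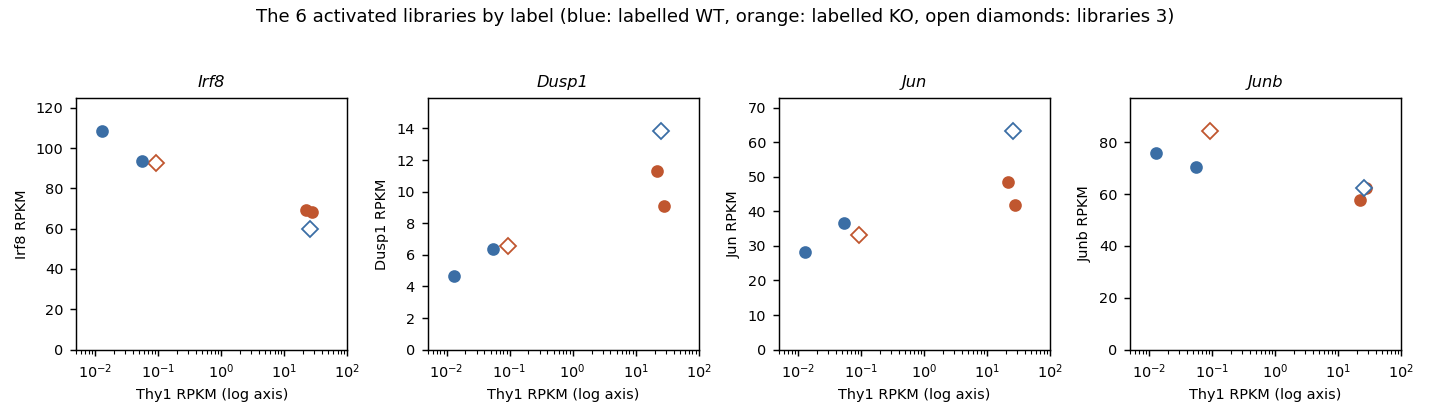
RPKM of Irf8, Dusp1, Jun and Junb against Thy1 RPKM (log axis) in the 6 activated libraries, blue for those labelled WT, orange for those labelled KO and open diamonds for libraries 3. The library labelled WT 3 has 25.7 RPKM of Thy1 and 13.841 of Dusp1, and the library labelled KO 3 has 0.093 and 6.553.

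In plasmablasts limma called 0 of 8 members between KO and WT and 0% of all genes, with 85 genes at an unadjusted p under 0.05. In KO library 3 each member rests on 0 to 6 estimated reads. Fos, Junb and Nr4a1 are listed at 0 there, where 1 read is worth 5.14, 10.8 and 5.14 RPKM. With all libraries the differences were negative for 7 of 8 members, -0.27 for Dusp1, -0.13 for Ier2, -0.51 for Jun, -0.64 for Jund, -0.38 for Fos, -0.17 for Egr1 and -1.66 for Junb (interval -4.88 to 1.55), and 0.2 for Nr4a1. Without the libraries that stand apart 0 of 8 members were called (0.071% of all genes), and the sign changed for Dusp1, Ier2, Jun, Jund, Fos and Junb, so these directions rest on KO library 3. Dusp1 was then at 23.867 and 20.02 RPKM in KO and 14.288 and 15.663 in WT (difference 0.52, interval 0.18 to 0.86, adjusted p = 0.507), and Ier2 at 40.274 and 46.587 against 34.667 and 29.446 (0.43, interval 0.18 to 0.67, adjusted p = 0.391). For both genes the KO libraries 1 and 2 lay above both WT libraries, and the share of all genes that do so was not counted. The KO effect was also compared between plasmablasts and activated cells, and 0 of 8 members were called with all libraries (0% of all genes, 10 at an unadjusted p under 0.05) and without those that stand apart (0.0304%). In the latter fit the difference was 0.57 for Junb (interval 0.24 to 0.89, adjusted p = 0.347) and -0.53 for Egr1 (-1.03 to -0.03), neither called.

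Plasmablasts and activated cells of the same culture conditions were compared to ask how the genes differ with the cell state. With all libraries 0 of 8 members were called in WT (1.76% of all genes) and 0 of 8 in KO (3.44%). Without the libraries that stand apart, 5 of 8 were called in WT, against 46.3% of all genes, and 3 of 8 in KO, against 33.6%. With so high a background, these counts say nothing particular of the members. In WT, Dusp1, Fos and Jun rose (3 of 8, against 15.5% of all genes higher) and Junb and Nr4a1 fell (2 of 8, against 30.7% lower). In KO, Dusp1, Ier2 and Fos rose (3 of 8, against 12.1% higher).

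Without those libraries Dusp1 rose in WT and in KO plasmablasts. It was at 14.288 and 15.663 RPKM in WT plasmablasts and 4.646 and 6.349 in WT activated libraries 1 and 2 (difference 1.31, SE 0.16, adjusted p = 2.43e-05), and at 23.867 and 20.02 against 11.333 and 9.094 in KO (1.03, SE 0.16, adjusted p = 0.000276). The groups do not overlap in either, and the share of all genes without overlap was not counted. Fos rose by 0.73 in WT (adjusted p = 0.0307) and by 0.71 in KO (adjusted p = 0.0458), from 0.386 and 0.629 RPKM in WT activated libraries 1 and 2 to 2.334 and 0.854 in plasmablasts, a scale on which adding 1 makes a difference near 1 RPKM smaller than its ratio. Nr4a1 fell by 1.23 in WT (adjusted p = 0.00161), from 2.992 and 1.37 RPKM to 0.461 and 0.183, and its difference of -0.69 in KO was not called (adjusted p = 0.0508). Junb fell by 0.64 in WT (adjusted p = 0.000318), from 75.852 and 70.294 to 49.409 and 43.477, and had -0.08 in KO. Jun rose by 0.47 in WT (adjusted p = 0.0163), and Ier2 rose by 0.62 in KO (adjusted p = 0.00116). Jund and Egr1 were called in neither. With plasmablast KO library 3 alone left out, Dusp1, Junb and Nr4a1 were called in WT and Dusp1, Fos and Ier2 in KO.

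The plasma cell markers Sdc1, Prdm1, Xbp1, Irf4, Jchain, Slamf7 and Tnfrsf17 summed to 744 to 1980 RPKM in activated libraries and 1630 to 3780 in plasmablasts, ranges that overlap. The B cell markers summed to 1500 to 2260 RPKM in activated and 606 to 1500 in plasmablast libraries. The part of these markers in the differences was not tested, and fewer cells of a type and less RNA per cell cannot be told apart in bulk RNA.

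**Figure D4:**
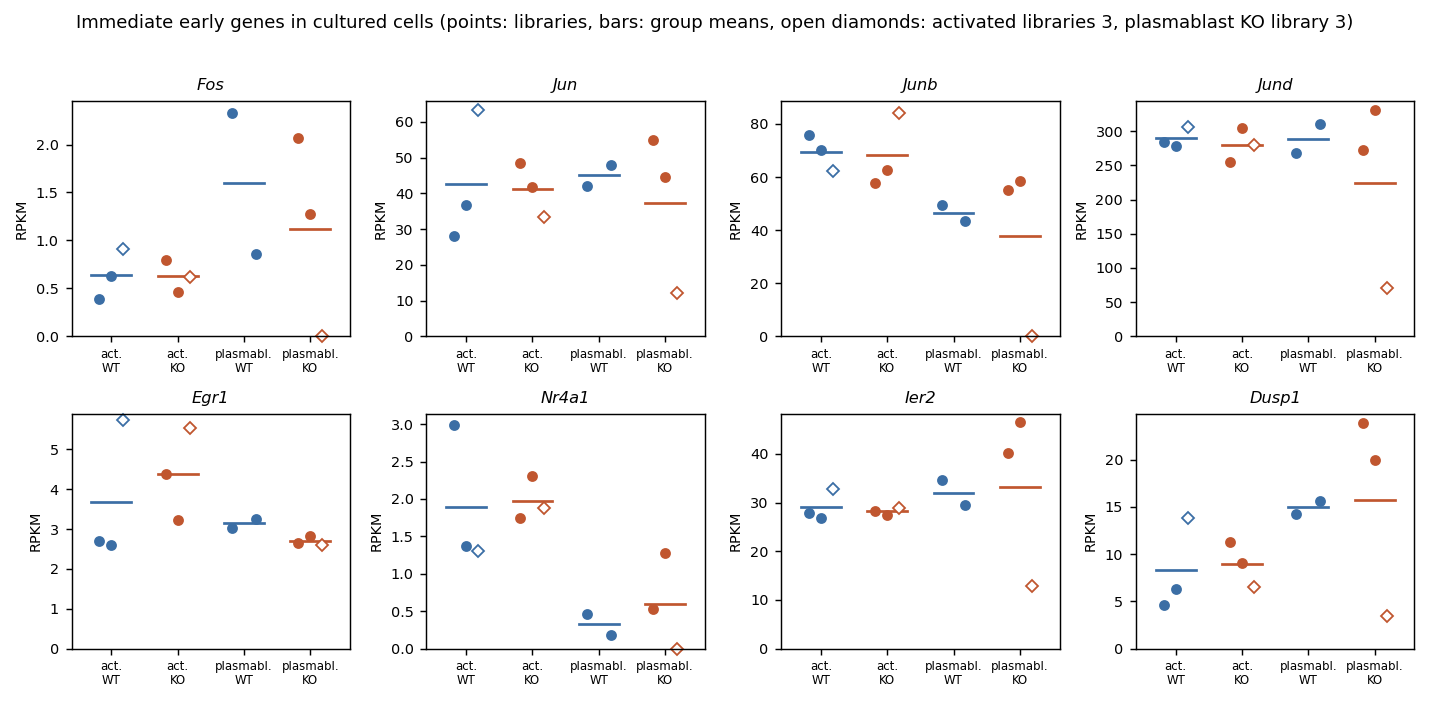
RPKM of the 8 listed genes in the 11 cultured libraries, with points for libraries, bars for group means and open diamonds for both activated libraries 3 and plasmablast KO library 3. Dusp1 is at 14.288 to 23.867 in plasmablast libraries other than KO library 3, and at 4.646 to 13.841 in activated libraries.

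**Figure D5:**
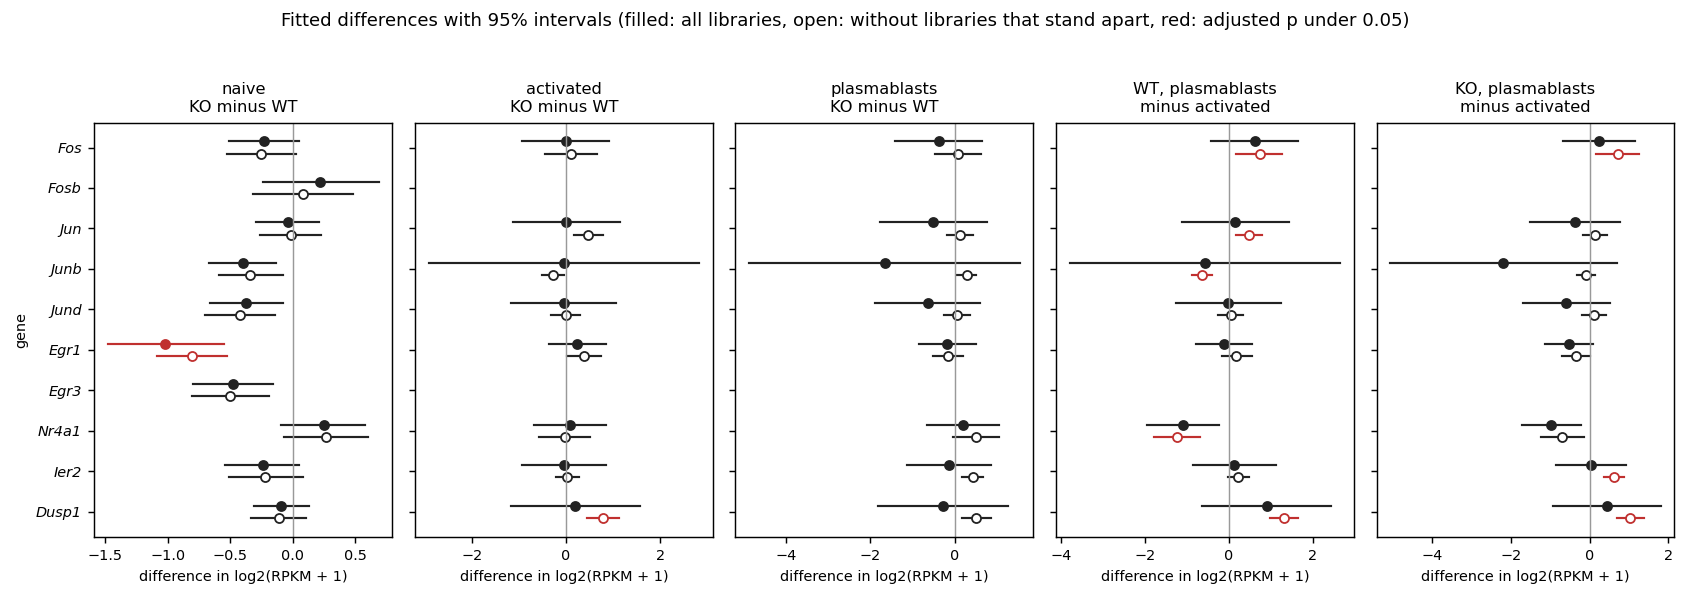
Differences in log2(RPKM + 1) with 95% intervals for each gene in 5 comparisons, filled for all libraries, open without the libraries that stand apart, and red for an adjusted p under 0.05. In naive cells Egr1 is the 1 gene in red in both fits (-1.02 and -0.81), and in cultured cells only open points are red.

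Genes around the pathway were counted from lists chosen with earlier results of these data known. The counts in naive cells are to be read against 1.88% of all genes called, and 3.84% without KO guide 1 library A. In lists this short each gene moves the share much, and no list was tested as a set. In naive KO against WT cells, 1 of 34 tested other immediate early genes fell, Klf2, a factor of quiescence and trafficking (difference -0.62, adjusted p = 0.0341), with a list median of -0.14. Of 8 other partners of AP-1, Bach2, which represses plasma cell genes, fell by 1.26 (6.93 ± 2.46 against 17.5 ± 3.54 RPKM, adjusted p = 0.00561). Of 32 kinases and factors that induce immediate early genes, Elk3, an ETS cofactor of serum response factor, rose by 0.65 (16.5 ± 1.79 against 10.2 ± 1.9 RPKM, adjusted p = 0.0259), and Prkcd, a protein kinase C, fell by 0.47 (adjusted p = 0.0147). Without KO guide 1 library A, 3 of the 34 other immediate early genes rose (Gadd45b, Plk3 and Ppp1r15a) and Klf2 fell, and 1 of 15 phosphatases and feedback inhibitors rose and 2 fell (among Dusp7, Dusp10 and Dusp16). Of 13 stress genes Bag3 rose in that fit. With all libraries, 0 of 15 MAP kinase phosphatases and feedback inhibitors were called and 0 of 13 heat shock and dissociation stress genes, whose summed level was 614 to 848 RPKM in WT and 670 to 868 in KO libraries.

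In WT plasmablasts against activated cells with all libraries, 5 of 35 other immediate early genes fell, against 1.43% of all genes lower. They were led by Klf2 (-3.82), Id3, an inhibitor of E proteins (-3.3), and Btg1, an antiproliferative gene (-2.76). Of 8 AP-1 partners, Bach2 (-1.73) and Batf (-1.69) fell, and of 32 kinases and factors 5 fell, among them Prkcb (-2.08), Rasgrp2 (-1.64), Rasgrp1 (-1.22) and Crtc2 (-1.19). Prkcb and Rasgrp1 carry antigen receptor signals to the MAP kinases. In KO cells 4 of 35, 2 of 8 and 5 of 32 fell in the same lists, against 2.67% of all genes lower. Of 12 heat shock genes Hspa8 fell by 1.24. With all libraries no gene of these lists rose in either. Without those that stand apart, 8 of 35 other immediate early genes rose and 16 fell in WT, and 6 rose and 13 fell in KO. Of all genes 15.5% rose and 30.7% fell in WT in that fit, and 12.1% rose and 21.5% fell in KO. Of the 32 kinases and factors 2 rose and 18 fell in WT and 2 rose and 12 fell in KO, and of 12 heat shock genes 2 rose and 7 fell in each. Of 16 phosphatases and feedback inhibitors 4 rose and 6 fell in WT and 4 rose and 4 fell in KO, and of 8 AP-1 partners 2 rose and 3 fell in each.

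The genes whose residual pattern was most like the mean of the members, after group means were removed, were Map4k4 (r = 0.964), Ino80b (0.937), Cyp2r1 (0.93), Inka1 (0.921) and Mrps21 (0.911) over the 12 naive libraries. Map4k4 and Inka1 were also among the first 5 without KO guide 1 library A (0.956 and 0.972). In cultured cells the first 5 included Il10 (0.995), Keap1 (0.993), Gnpnat1 (0.992) and Ada (0.992) with all 11 libraries, where plasmablast KO library 3 sits far from the rest, and 5 others (Cdkn2aip, Pgs1, Ptcd2, Pfdn1 and Cacul1) over the 8 left without those that stand apart. The points share library and depth, and r is a description. Over the 8 libraries, removing group means makes the libraries of a group mirror each other. The genes were also picked as the highest of all tested, so a high r says little of a shared pattern.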

How the data were processed

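The authors deposited RPKM values with 3 decimals, separately for naive and cultured cells. Per the submitters' processing notes the aligner was STAR and the genome build mm10. Its version, how reads were counted and how the listed genes were picked are not given in the sources used here. No column of per-sample values was left unused (0). Groups came from the labels. The 10 members and all gene lists were chosen with earlier results of these data known. Reads per library were estimated from the smallest steps between low values, and the counts themselves are not analysed here.

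Values were analysed as log2(RPKM + 1) with limma 3.58.1 in R 4.3.3, for genes at 1 RPKM or more in at least 2 libraries of a table (10137 naive, 9986 cultured). Group means were fitted once per table with a trend in the spread, for 10 contrasts in all, with limma's moderated two-sided test, and Benjamini-Hochberg adjustment over all genes tested. Tests were run only within a table. Of other list genes, the text names up to 4 called per list and contrast with the largest difference, plus Irf8 and Thy1 as label checks, and the 5 genes most like the members per table. A B cell marker and a gene that these rules name are not reported here. The fit was tested on simulated data. Alternatives were a pseudocount of 0.1, no filter, quantile normalization, no trend, array weights, a replicate block, only the groups compared, each library left out, and without the libraries that stand apart. Promoters came from a RefSeq table that matched 7 of 10 members.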

Additional observations from a re-analysis of the deposited data

Results flagged for a closer look

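Of 20 groups of 6 naive libraries (10 genes, KO and WT of both arms together), 2 held a library far from the others, where chance gives about 1 in 20. Junb was at 255 RPKM in KO guide 1 library B, and the other 5 KO libraries were at 146.899 to 178.389 RPKM. Nr4a1 was at 36.5 RPKM in KO guide 2 library A, and the other 5 were at 14.181 to 20.417 RPKM. Without the first library the difference of Junb in naive cells was -0.52, against -0.40 with it. The part of these libraries' quality in the 2 values was not tested.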

How the results depend on the processing

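In naive KO against WT cells of both guides, 1 of 10 members was called. The count was 0 with log2(RPKM + 0.1), 3 with array weights and 3 with weights estimated gene by gene, and 0 to 2 with 1 library left out in turn. Deviations of libraries that share a letter or number had r of -0.243 to 0.254 (7 of 33 pairs above 0.1). With so few libraries per group, these values cannot decide whether such libraries are paired. With the replicate block the count was 2 (Jund joined Egr1). For guide 1 (0 called) it was 1 with quantile normalization, 1 without the library that stands apart, 2 with array weights, 1 gene by gene, and 0 to 2 with 1 library left out. For guide 2 (0) it was 1 with array weights. In activated cells (0) it was 1 without the libraries that stand apart. For plasmablasts against activated cells, WT (0) gave 5 without those libraries, 4 gene by gene, 2 of 7 tested with only the groups compared and 0 to 3 with 1 library left out, and KO (0) gave 3, 4 with gene by gene weights and 0 to 3. The other contrasts stayed at 0. No difference called with all libraries changed sign under these alternatives, but no cultured one was called there. The alternatives start from all libraries, and none was run on the fit without those that stand apart. Of cultured genes called in that fit, Dusp1 in activated KO cells (0.79 there) was at 0.2 with all libraries. It was at -0.09 with activated WT library 1 alone left out. Between states, Jun in WT (0.47) and Dusp1 (1.03), Fos (0.71) and Ier2 (0.62) in KO also had the opposite sign in some alternative that starts from all libraries. Dusp1, Fos, Junb and Nr4a1 in WT did not.

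Of 1777 alternative values of a member's difference, 96 had the opposite sign to the fit with all libraries. Of these, 0 were called in that fit or in the alternative itself. In naive cells of both guides the values with 1 library left out ran from -0.11 to 0.03 for Jun. For guide 2 the values with 1 library left out ran from -0.28 to 0.14 for Fosb. With quantile normalization the value was 0.02 for Fosb. Between guides the values with 1 library left out ran from 0 to 0.35 for Egr3, -0.27 to 0.07 for Fos and -0.08 to 0.38 for Ier2. Between WT arms the values with 1 library left out ran from -0.14 to 0.06 for Egr1 and -0.04 to 0.21 for Jun. In activated cells, KO against WT, the values with 1 library left out ran from -0.13 to 0.11 for Fos, -0.24 to 0.33 for Jun, -0.21 to 0.07 for Junb, -0.12 to 0.01 for Jund, -0.1 to 0.04 for Ier2, -0.09 to 0.6 for Dusp1 and -0.05 to 0.35 for Nr4a1. With log2(RPKM + 0.1) the value was 0 for Fos. With those that stand apart left out the values were 0.11 for Fos, 0.03 for Ier2 and -0.03 for Nr4a1. With gene by gene weights the values were 0.07 for Jund and 0.02 for Ier2. In plasmablasts, KO against WT, the values with 1 library left out ran from -0.8 to 0.09 for Fos, -0.91 to 0.13 for Jun, -2.66 to 0.29 for Junb, -1.05 to 0.06 for Jund, -0.47 to 0.43 for Ier2, -0.73 to 0.52 for Dusp1 and -0.09 to 0.5 for Nr4a1. With the replicate block the value was 0.02 for Ier2. With those that stand apart left out the values were 0.09 for Fos, 0.13 for Jun, 0.29 for Junb, 0.06 for Jund, 0.43 for Ier2 and 0.52 for Dusp1. With gene by gene weights the values were 0.12 for Fos, 0.15 for Jun, 0.25 for Junb, 0.02 for Jund, 0.4 for Ier2 and 0.53 for Dusp1. Between states in WT the values with 1 library left out ran from -0.27 to 0.18 for Egr1, -0.1 to 0.47 for Jun and -0.11 to 0.1 for Jund. With quantile normalization the value was 0.08 for Egr1. With the replicate block the values were 0.03 for Egr1, 0 for Jun and -0.02 for Ier2. With those that stand apart left out the values were 0.18 for Egr1 and 0.04 for Jund. With gene by gene weights the values were 0.15 for Egr1 and 0.04 for Jund. Between states in KO the values with 1 library left out ran from -0.1 to 0.71 for Fos, -0.77 to 0.28 for Jun, -1 to 0.11 for Jund, -0.29 to 0.6 for Ier2 and -0.02 to 1.22 for Dusp1. With log2(RPKM + 0.1) the value was -0.09 for Fos. With those that stand apart left out the values were 0.13 for Jun and 0.11 for Jund. With gene by gene weights the value was 0.24 for Jun. For the difference of KO effects the values with 1 library left out ran from -0.79 to 0.1 for Fos, -0.92 to 0.12 for Jun, -2.62 to 0.33 for Junb, -1 to 0.11 for Jund, -0.43 to 0.47 for Ier2, -0.93 to 0.31 for Dusp1 and -0.18 to 0.41 for Nr4a1. With log2(RPKM + 0.1) the value was -0.01 for Nr4a1. With quantile normalization the value was 0.02 for Ier2. With the replicate block the value was 0.06 for Ier2. With those that stand apart left out the values were 0.57 for Junb, 0.07 for Jund and 0.4 for Ier2. With gene by gene weights the values were 0.2 for Fos, 0.42 for Junb, 0.38 for Ier2 and 0.05 for Dusp1.

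The planned array weights did not converge in cultured cells and gave activated KO and WT library 2 weights of 33.7 and 80.5, against 0.386 to 0.906 for the other activated libraries. That fit called 7 of 8 members in activated KO against WT, 5 in WT and 4 in KO plasmablasts against activated cells. It was left out after these values were seen, and the gene by gene weights were added then. Counts of all genes called also moved without the libraries that stand apart, from 191 to 387 in naive cells of both guides, 113 to 242 for guide 1, 3 to 35 for guide 2, 0 to 70 in activated cells, 0 to 7 in plasmablasts, 176 to 4565 and 344 to 3318 between cultured states in WT and KO, and 0 to 3 for the difference of KO effects. Depth limits plasmablast KO library 3 (51300 reads) and Fos and Nr4a1 in cultured cells.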
